A study of Mus musculus with 15 samples.

Results

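Oxidative phosphorylation is carried out by complexes I to IV of the respiratory chain and by ATP synthase, complex V, in the inner membrane of the mitochondrion. The genes described here were taken by symbol from the deposited gene tables: mt-Nd, mt-Co, mt-Cytb and mt-Atp genes of the mitochondrial genome, and Nduf, Sdha to Sdhd, Uqcr, Cox4 to Cox8 and Atp5 genes of the nucleus. After 15 rows were dropped, 105 members remained of 54532 genes in the tables. Of these, 13 are mitochondrially encoded and 92 are nuclear encoded, and the nuclear members comprise 84 subunits and 8 assembly factors of complex I (Ndufaf genes). By complex, the nuclear subunits number 36 in complex I, 4 in complex II, 8 in complex III, 20 in complex IV and 16 in complex V. The dropped rows were 12 annotated pseudogenes, Ndufb1-ps (an annotated lncRNA whose symbol marks a pseudogene), Atp5s (not a subunit) and a further gene ID of Atp5o with 0 counts.

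Complexes I, III and IV pump protons as electrons pass from NADH to oxygen, complex II feeds in electrons from succinate without pumping, and complex V uses the proton gradient to make ATP. Complex II is built from nuclear products alone, whereas the other complexes combine nuclear subunits with core subunits translated inside the mitochondrion. In the retina, photoreceptor inner segments are packed with mitochondria, and retinal ganglion cells (RGC), whose axons form the optic nerve, are known for their sensitivity to mitochondrial defects.

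RNA was sequenced from retinas of wild type C57BL/6 mice in 5 groups of 3 libraries. WT retinas came from naïve mice, ONC retinas from mice 2 days after optic nerve crush, a forceps injury that damages RGC axons in both nerves, and the remaining groups received the same crush with acupuncture 3 times at GB20 (ONC-F), BL1 (ONC-J) or the sham point GV16 (ONC-S). The labels give an age of 5 weeks and the methods 6 weeks. The crush was done under anesthesia and no sham-operated group is described. In every comparison with WT, the crush and its anesthesia and surgery therefore cannot be told apart. The methods describe anesthesia and needling for GB20 and BL1, and do not say whether the ONC mice were anesthetized again, so acupuncture and repeated anesthesia cannot be told apart against ONC. The methods give 3 mice a group and an experiment repeated 3 times, and call the libraries biological replicates; whether a library pools the mice of a repeat is not stated, so p-values measure the spread between libraries. The methods also speak of 4 groups where the tables hold 5, and the sample records of ONC-S are numbered apart from those of the other 12 libraries. No label gives a batch, and whether ONC-S was processed at another time is not stated, so in every comparison with ONC-S such a difference and needling at GV16 cannot be told apart.

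Total counts per library ranged from 14482435 to 26112762. Of the 105 members, 103 were among the 19259 genes that passed the filter on low counts, and Cox7b2 and Cox8c, testis-type isoforms of complex IV subunits with 14 and 2 counts over all libraries, were not. WT replicate 1 stood apart by lens transcripts (8 lens genes summed to 1652 counts scaled to library size, CPM, against 67.7 or less in the other 14 libraries). ONC replicate 2 stood apart by microglia and macrophage genes (71.1 CPM over 10 genes, against 35.1 to 58.7 CPM). It also had the lowest sum of 13 rod genes (55300 CPM, against 59971 CPM or more). The 3 ONC-S libraries differed from WT in 4479 genes (23.3% of those tested), against 387 to 696 genes for the other injured groups. The RGC list of 12 genes summed to 891 to 939 CPM in WT and to 579 to 732 CPM in the 12 injured libraries. In bulk retina, fewer cells of a type and less RNA per cell cannot be told apart, here or in any result below.

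The mitochondrially encoded members held the most abundant genes of the set, but fell into 2 ranges of level. FPKM, fragments scaled to gene length and library depth, is per length and allows genes to be compared. On this scale, mt-Co1 (the catalytic subunit of complex IV) had a mean level of 4972, mt-Cytb (the mitochondrially encoded subunit of complex III) 4275, and mt-Nd1, mt-Nd2, mt-Nd4, mt-Nd5 and mt-Nd6 (core subunits of complex I) 1160 to 2849. The other 6 lay between 4.60 for mt-Atp8 and 89.8 FPKM for mt-Co2, although mt-Co2 and mt-Co3 encode core subunits of the same enzyme as mt-Co1.

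Beside these levels stands a measured property of the sequences. Of the mRNA of mt-Nd3, mt-Nd4l, mt-Co2, mt-Co3 and mt-Atp6, 99.0% to 99.9% was covered at 98% identity or more by annotated nuclear pseudogenes on chromosome 1 (Gm28438, Gm10222, Gm28661, Gm28437 and Gm10925). Coverage was 63.6% for mt-Nd4, 31.3% for mt-Co1 and 0% for mt-Nd1, mt-Nd2, mt-Nd5, mt-Nd6 and mt-Cytb. The short mt-Atp8 (204 bases) had 0% coverage and overlaps mt-Atp6 by 43 bases. The windows below are bases 101 to 160 of 3 mitochondrial mRNAs with the matching stretch of the nearest nuclear copy (GENCODE transcripts, GRCm38), shown because they differ in how well a read could be placed, with bases that differ in capitals.
mt-Co3: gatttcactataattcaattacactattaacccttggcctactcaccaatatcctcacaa
Gm28437: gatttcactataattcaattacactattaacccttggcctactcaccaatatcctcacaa
mt-Nd3: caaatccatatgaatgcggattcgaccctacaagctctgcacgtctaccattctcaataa
Gm28438: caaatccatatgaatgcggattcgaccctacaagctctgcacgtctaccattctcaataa
mt-Cytb: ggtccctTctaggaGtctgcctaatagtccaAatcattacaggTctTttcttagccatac
Gm11410: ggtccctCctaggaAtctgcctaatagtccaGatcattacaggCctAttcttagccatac
The first 2 pairs have 0 differences in this window and the pair of mt-Cytb and Gm11410 (chromosome 4) has 5. How the authors' counting treated reads that fit several places is not given in the sources used here. The counts of mt-Nd3, mt-Nd4l, mt-Co2, mt-Co3 and mt-Atp6 are therefore uncertain, and the part of the copies in their low level was not tested. Their copies named above had from 2442 (Gm10222) to 9584 (Gm28438) counts over all libraries. Counts of mt-Nd4 and mt-Co1 are uncertain over the covered part of their mRNA. On the opposite strand to mt-Nd5, mt-Nd6 overlaps it by 14 bases. Whether counting used strand is not given in the sources used here, so the count of mt-Nd6 is uncertain too. Only annotated nuclear transcripts were searched, so other copies in the genome, of mt-Atp8 included, were not sought.

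**Figure D1:**
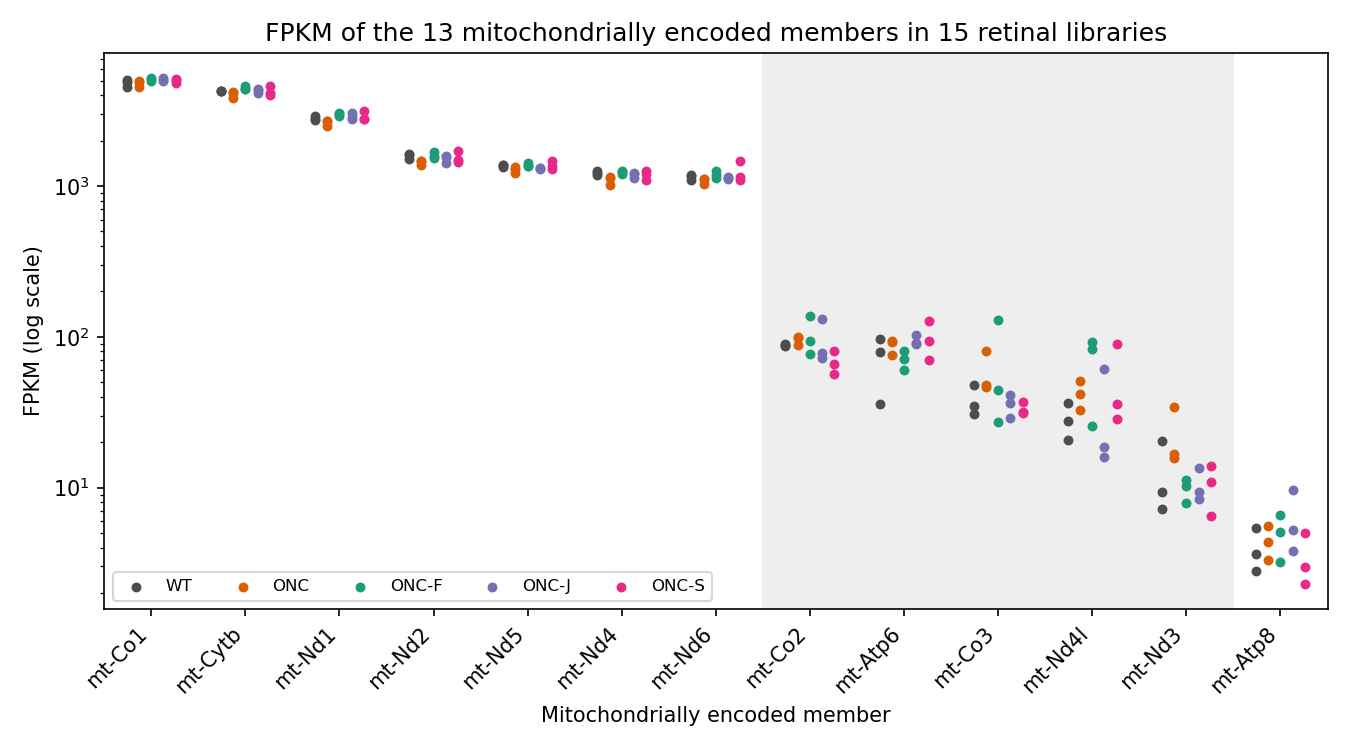
FPKM (log axis) of each mitochondrially encoded member in each of the 15 libraries, colored by group, with members whose mRNA is covered at 90% or more by near-identical nuclear copies on a gray ground. The 7 members at the left lie between 1160 and 4972 FPKM on average and the 6 at the right between 4.60 and 89.8 FPKM, with wider spread between libraries of a group.

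The low members also varied more between libraries of a group. The coefficient of variation within a group (median of the 5 groups) was 2.39% to 4.83% for the 7 abundant members and 14.9% to 53.5% for the 6 low ones. As an example, mt-Co3 was at 27.3, 24.3 and 38.1 CPM in the WT libraries, 38.0, 36.9 and 63.6 in ONC, 102, 34.8 and 21.4 in ONC-F, 32.1, 22.7 and 28.7 in ONC-J and 24.9, 29.2 and 24.7 for ONC-S. The highest and the lowest value of all are both in ONC-F, which overlaps with every other group, and the 3 ONC libraries lie above those of ONC-J and ONC-S. By contrast, mt-Cytb was at 4956, 4910 and 4952 CPM in WT, 4840, 4408 and 4790 in ONC, 5079, 5292 and 5106 in ONC-F, 5034, 4727 and 4966 in ONC-J and 4785, 5293 and 4633 for ONC-S. The 3 ONC libraries lie below the 3 WT and the 3 ONC-F libraries, the ONC-J libraries (4727 to 5034) overlap with those of WT and ONC, and the ONC-S libraries with all other groups.

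As a whole, the 13 mitochondrially encoded members took a share of the counts whose group mean ranged from 2.11% in ONC to 2.27% in ONC-F. Their share of all counts was 2.18% ± 0.0725 (SD, n = 3) in WT, 2.11% ± 0.0711 in ONC, 2.27% ± 0.0276 in ONC-F, 2.21% ± 0.0517 in ONC-J and 2.16% ± 0.107 for ONC-S. The lowest library was ONC replicate 2 (2.03%) and the highest ONC-F replicate 2 (2.30%), and the 3 ONC-F libraries (2.25% to 2.30%) lay above the 3 ONC libraries (2.03% to 2.16%). The nuclear members took 0.761% ± 0.0155 of the counts in WT, 0.735% ± 0.0210 in ONC, 0.770% ± 0.0319 in ONC-F, 0.750% ± 0.0172 in ONC-J and 0.687% ± 0.0191 for ONC-S. Here the 3 ONC-S libraries (0.671% to 0.709%) lay below the other 12 (0.716% or more). Summed over the 84 nuclear subunits, the ONC-S mean differed from WT by -7.95%, that of ONC by -4.91% and that of ONC-F by 1.07%. The sum of the mitochondrially encoded members in ONC-S differed from WT by 1.03%.

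**Figure D2:**
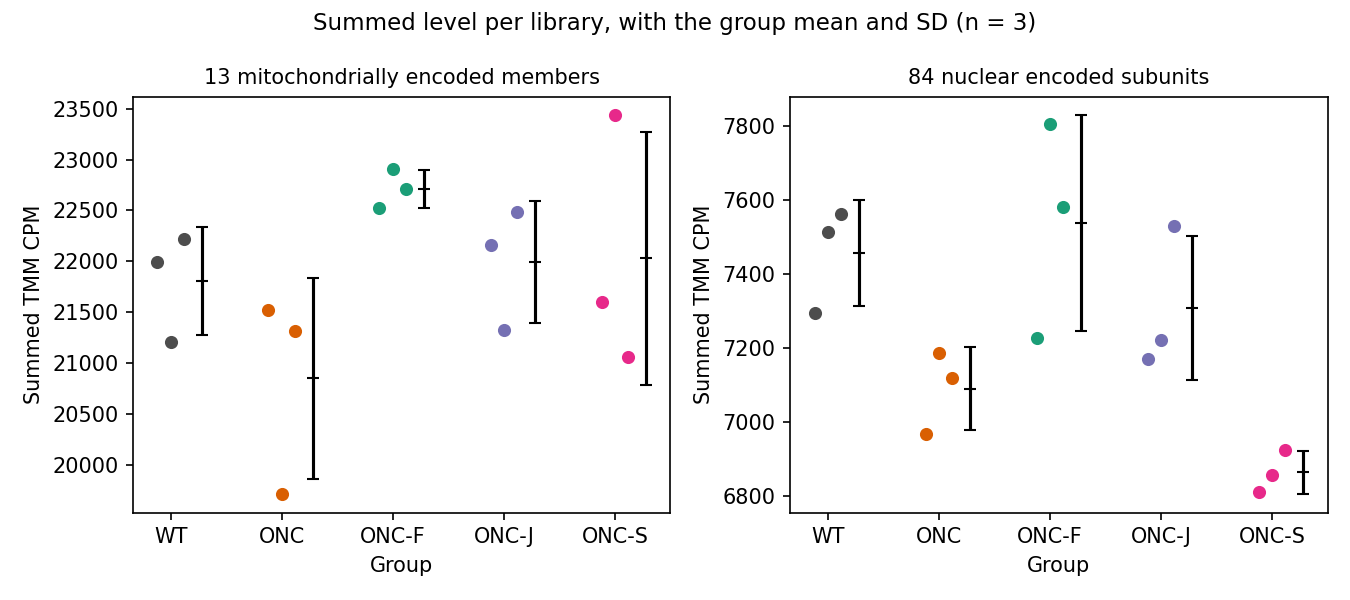
Summed CPM (TMM scaled) per library of the 13 mitochondrially encoded members and of the 84 nuclear encoded subunits by group, with the group mean and SD (n = 3) beside the points; the axes do not start at 0. ONC-S is lowest for the nuclear subunits, at -7.95% from WT, and lies at 1.03% from WT for the mitochondrially encoded members.

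Among nuclear members, levels differed by complex. Median FPKM over the members was 30.4 for complex I subunits, 8.32 for complex I assembly factors, 28.9 for complex II, 53.5 for complex III, 40.0 for complex IV and 48.7 for complex V. The highest in each was Ndufb11 at 94.3 FPKM (an accessory subunit of complex I), Sdha at 82.4 FPKM (the flavoprotein of succinate dehydrogenase), Uqcr10 at 75.8 FPKM (a small subunit of complex III), Cox8a at 303 FPKM (a small subunit of complex IV) and Atp5b at 237 FPKM (the catalytic beta subunit of ATP synthase). The lowest were Ndufb2 at 6.13, Sdhc at 20.3, Uqcrc2 at 37.0, Cox8c at 0.0111 and Atp5l at 10.8 FPKM. Ndufaf5 at 17.1 and Ndufaf2 at 4.01 FPKM bounded the assembly factors. Parts of Atp5l and 4 other nuclear mRNAs, Ndufs3, Atp5h, Uqcrb and Atp5f1, were covered at 98% identity by transcripts of other annotated genes over 64.6% to 84.1% of their length, so their counts are uncertain too. Ndufaf2 shares 65.7% of its exon bases with a lincRNA on the opposite strand, and whether counting used strand is not given in the sources used here.

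To ask how these genes differed after nerve crush without acupuncture, ONC was compared with WT. The only member called was Cox6a2, which encodes the heart and skeletal muscle isoform of a regulatory complex IV subunit. Its reads numbered 0, 0 and 3 in the WT libraries, 30, 18 and 33 in ONC, 30, 44 and 33 in ONC-F, 27, 41 and 26 in ONC-J and 45, 27 and 38 for ONC-S. Every injured library (1.02 to 2.08 CPM) lies above every WT library (0, 0 and 0.158 CPM), and the injured groups overlap with each other. The ratio of pooled count rates to WT was 31.6 for ONC (95% exact interval 10.4 to 156), 41.3 for ONC-F (13.8 to 204), 34.4 for ONC-J (11.4 to 170) and 34.4 for ONC-S (11.5 to 169), and these intervals cover counting error only. The log2 fold change of Cox6a2 in edgeR's quasi-likelihood fit, which rests on 3 WT counts, was 4.78 ± 0.56 (SE, adjusted p = 2.5e-05) in ONC, 5.19 ± 0.54 (6.5e-06) in ONC-F, 4.90 ± 0.55 (1.3e-05) in ONC-J and 4.95 ± 0.54 (3.7e-06) for ONC-S. The 4 comparisons share the WT libraries.

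Cox6a2 stayed a minor isoform. Its mean level was 0.0766 FPKM in WT and 2.15 to 2.86 FPKM in the injured groups, against 177 to 224 FPKM for Cox6a1, the form found in most tissues. The other muscle-type isoforms of complex IV were present in WT and not called in ONC: Cox7a1 was at 4.10 ± 0.454 FPKM in WT and 3.18 ± 0.259 in ONC, and Cox8b at 4.21 ± 0.568 and 4.35 ± 1.25 (SD, n = 3). The skeletal muscle list of 18 genes, fixed to show muscle tissue in a library, summed to 37.5 to 38.4 CPM in WT and 29.7 to 51.8 CPM in the injured libraries, with 5 of the 18 at 0 in all WT libraries. Of the 11 tested, 0 were called in any other injured group against WT and 1 was lower in ONC-S. The sum was highest in an ONC-J library, in which Cox6a2 (1.40 CPM) was the lowest of its group.

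**Figure D3:**
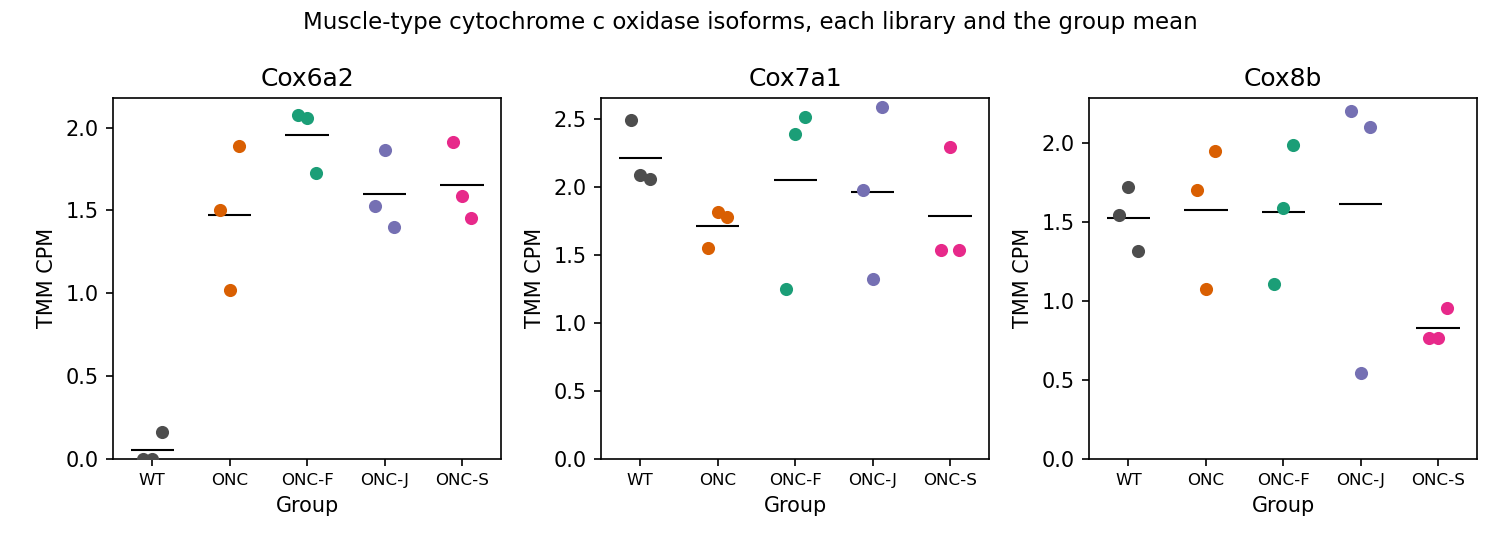
CPM of the muscle-type complex IV isoforms Cox6a2, Cox7a1 and Cox8b in each library (points) with the group mean (line). Cox6a2 is at 0 to 0.158 CPM in WT and at 1.02 to 2.08 CPM in all 12 injured libraries, whereas Cox7a1 and Cox8b in WT overlap with the range of the 12 injured libraries.

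The other isoform pairs kept their order in every group mean. Cox4i1 (133 FPKM on average) exceeded Cox4i2 (22.0), a form linked to low oxygen; Cox6b1 (92.3) exceeded the testis-type Cox6b2 (8.23); Cox7a2 (55.6) exceeded Cox7a1 (3.61); and Ndufa4 (122), a subunit of complex IV despite its symbol, exceeded Ndufa4l2 (1.30). Of the genes for the identical c subunit of ATP synthase, Atp5g3 had 60.8, Atp5g2 43.6 and Atp5g1 12.7 FPKM.

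Apart from Cox6a2, no member passed the test in ONC against WT, and most nuclear subunits had small negative values. Of the 103 members tested, 1 was called higher and 0 lower in ONC by edgeR, against 2.11% of all genes called (0.955% higher and 1.16% lower). At an unadjusted p under 0.05, 2 members were higher and 16 lower, where 5.59% and 5.36% of all genes were, and the 16 became 5 without WT replicate 2 and 5 without ONC replicate 1. The shares of all genes in those fits are not given here. Of 82 nuclear subunits tested, 73 had a negative and 9 a positive log2 fold change, with a median of -0.08, against -0.00228 over all genes. For 25 of them the 3 ONC libraries lay below the 3 WT libraries (8.92% of all genes did so), and for 1 above (8.7%). By complex, the median was -0.06 for complex I, -0.04 for complex II, -0.04 for complex III, -0.10 for complex IV and -0.09 for complex V. Among the mitochondrially encoded members, the 7 abundant ones were all negative (-0.16 to -0.01, median -0.09) and the 6 low ones, with their wide spread, all positive (0.11 for mt-Co2 to 0.86 for mt-Nd3), and 0 were called. The median of the 13 was -0.01, and it was 0.0013 without WT replicate 1, 0.028 without WT replicate 3 and 0.029 without ONC replicate 2. Shorter genes as a class also leaned downward in ONC: the median over the tested genes of up to 2054 exon bases was -0.03, beside -0.09 for the 53 nuclear subunits of that length, and the part of length in the result was not tested. Marker lists of cell types also differed between these libraries. Rod genes had a median of -0.10, with 11 of 13 negative and 0 called. They summed to 63027 to 66270 CPM in WT and to 62903, 55300 and 64383 CPM in ONC. The low end of ONC is replicate 2 alone. Microglia and macrophage genes had a median of 0.66, with 10 of 10 positive and 0 called, and summed to 35.1 to 36.9 CPM in WT and 38.2 to 71.1 CPM in ONC. Of these lists, 0 genes were at 0 in all libraries, and the part of these cell types in the result was not tested.

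**Figure D4:**
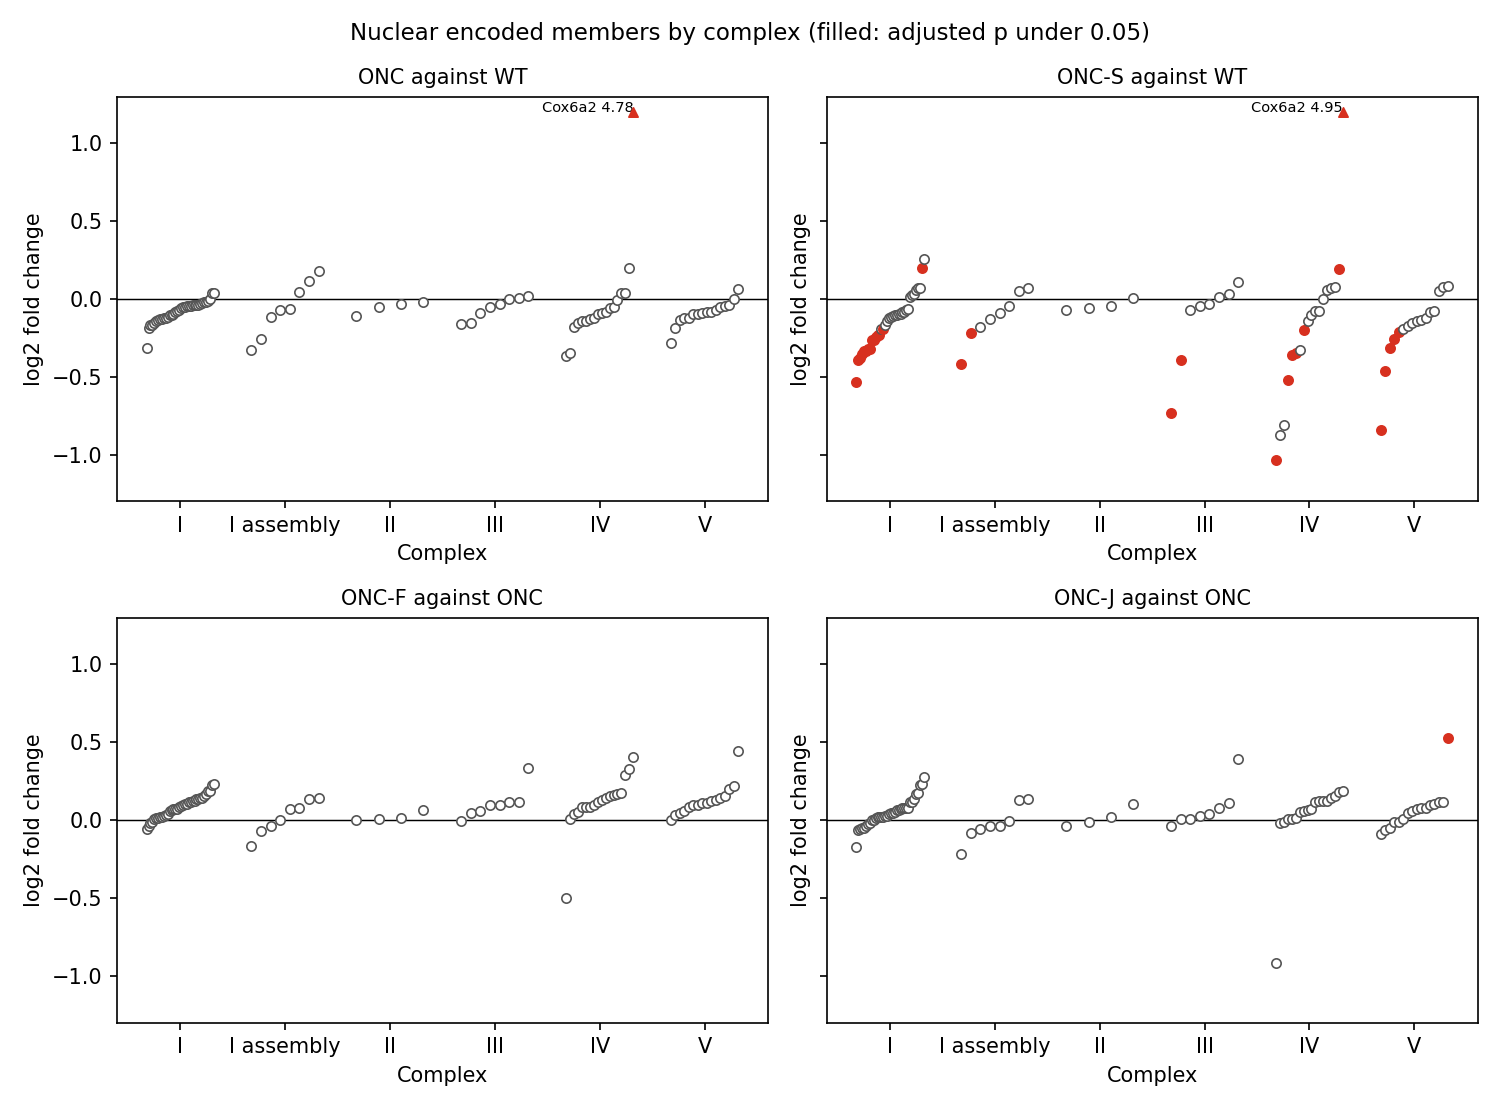
Log2 fold change of each tested nuclear encoded member by complex (sorted within each) for ONC and ONC-S against WT and for ONC-F and ONC-J against ONC; filled points had an adjusted p under 0.05, and a triangle marks Cox6a2, whose value (4.78 and 4.95) is beyond the axis. Most points lie below 0 in the panels against WT and above 0 in the panels against ONC, and in ONC-S against WT 28 of the members called lie below 0 and 3, Cox6a2 included, above.

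ONC-F and ONC-J were compared with ONC to ask what acupuncture at GB20 and BL1 changed after injury. The comparisons share the ONC libraries with each other and with the comparison of ONC with WT. In ONC-F, 0 of 103 members were called by edgeR, against 0.00519% of all genes, and DESeq2 called 1. At an unadjusted p under 0.05, 32 members were higher and 1 lower, where 4.02% and 4.13% of all genes were, and the 32 became 15 without ONC-F replicate 2 and 21 without ONC replicate 1. The shares of all genes in those fits are not given here. Of the nuclear subunits, 76 of 82 had a positive log2 fold change, with a median of 0.10, and all 7 abundant mitochondrially encoded members did (0.09 to 0.18, median 0.14), against a median of -0.00357 over all genes. For 27 nuclear subunits and 7 mitochondrially encoded members the 3 ONC-F libraries lay above the 3 ONC libraries, where 6.80% of all genes did so. Median changes were 0.09 in complex I, 0.01 in complex II, 0.10 in complex III, 0.12 in complex IV and 0.11 in complex V. Against WT, 1 member (Cox6a2) was called in ONC-F (2.01% of all genes) and 1, again Cox6a2, in ONC-J (3.61% of all genes). The medians of ONC-F against WT were 0.03 for the nuclear subunits, which turned to -0.0036 without ONC-F replicate 2, and 0.06 for the mitochondrially encoded members. Without ONC replicate 2, the library with the most microglia and macrophage RNA, the ONC-F median against ONC was 0.07 for the mitochondrially encoded members and 0.11 for the nuclear subunits.

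Marker lists moved in the same comparison of ONC-F with ONC, each with 0 genes called. Rod genes had a median of 0.12, with 12 of 13 positive, and summed to 55300 to 64383 CPM in ONC and 63079 to 66852 CPM in ONC-F. RGC genes had a median of 0.14, with 11 of 12 positive (579 to 612 and 597 to 732 CPM). The member medians were 0.10 for the nuclear subunits and 0.14 for the mitochondrially encoded members. The low rod end of ONC is replicate 2, with the other libraries at 62903 and 64383 CPM. The high RGC end of ONC-F is replicate 3, with the other libraries at 597 and 626 CPM. Retinal pigment epithelium genes had a median of 0.51, with 6 of 7 positive (431 to 534 and 488 to 600 CPM), and microglia and macrophage genes of -0.35, with 9 of 10 negative (38.2 to 71.1 and 39.8 to 43.4 CPM). The ranges of the 2 groups overlap for all 4 lists. The part of these cell types in the result was not tested.

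In ONC-J, 1 of 103 members was called against ONC, beside 0.125% of all genes. This was Atp5k, the e subunit of ATP synthase, which sits at the interface of its dimers. It was at 36.8, 45.7 and 37.0 CPM in WT, 31.1, 30.6 and 36.8 in ONC, 43.2, 47.7 and 42.8 in ONC-F, 49.8, 42.2 and 50.3 in ONC-J and 19.2, 24.8 and 23.0 for ONC-S. All ONC-J and ONC-F libraries lie above all ONC libraries, and all ONC-S libraries lie below the other 12. The log2 fold change of ONC-J over ONC for Atp5k was 0.53 ± 0.10 (SE, edgeR adjusted p = 0.046), and that of ONC-F over ONC was 0.44 with an adjusted p of 0.26. The ONC-J call was lost when any 1 of 11 libraries was left out, other ONC-F and ONC-S libraries included. Over the nuclear subunits the median of ONC-J against ONC was 0.05, with 62 of 82 positive, and over the mitochondrially encoded members 0.07. These were 0.012 for the nuclear subunits without ONC-J replicate 3 and 0.026 for the mitochondrially encoded members without ONC replicate 2. Rod genes had a median of 0.07 in this comparison, with 10 of 13 positive. Between ONC-F and ONC-J, 0 of 103 members were called by edgeR and by DESeq2, and 4 were higher and 0 lower in ONC-F at an unadjusted p under 0.05, where 1.47% and 1.87% of all genes were and 0% were called.

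ONC-S, the sham point group, held most of the calls. Against WT, 3 members were higher and 28 lower (2.91% and 27.2% of the 103), where 11.6% and 11.7% of all genes were called in those directions. Against ONC, 3 were higher and 15 lower, where 7.6% and 6.89% of all genes were. Lower against WT were 14 of 36 subunits and 2 of 8 assembly factors of complex I, 0 of 4 subunits of complex II, 2 of 8 of complex III, 5 of 18 tested of complex IV and 5 of 16 of complex V. None of the 13 mitochondrially encoded members was called against WT, where 0 also had an unadjusted p under 0.05 (35.0% of all genes did). The medians were -0.11 for nuclear subunits, -0.01 for mitochondrially encoded members and -0.01 for all genes. The mitochondrial median was 0.069 without WT replicate 3, 0.011 without ONC-S replicate 1 and 0.0091 without ONC-S replicate 3. For 20 members, all of them nuclear subunits, the 3 ONC-S libraries lay below the other 12, against 6.05% of all genes, and for 2 they lay above (7.3% of all genes).

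The members with the smallest p in ONC-S came from complexes I, III, IV and V. Cox7c, a small subunit of complex IV, was at 93.7, 94.2 and 91.2 CPM in WT, 80.9, 89.1 and 82.8 in ONC, 85.7, 93.2 and 91.1 in ONC-F, 96.3, 89.9 and 100.2 in ONC-J and 60.1, 68.1 and 66.3 for ONC-S. Its ONC-S libraries lie below all others, with a log2 fold change of -0.52 ± 0.06 (SE, edgeR adjusted p = 5.1e-06) against WT and -0.38 ± 0.06 (0.00034) against ONC. Cox6b2, the testis-type form of a complex IV subunit, was at 11.5, 10.2 and 11.7 CPM in WT, 9.16, 9.17 and 7.85 in ONC, 10.4, 10.9 and 11.5 in ONC-F, 10.2, 8.14 and 10.6 in ONC-J and 5.62, 5.06 and 5.55 for ONC-S. Here too ONC-S stands below the 12 others, at -1.03 ± 0.12 (adjusted p = 7e-06) against WT. Atp5k, whose values are given above, fell by 0.84 on the log2 scale (SE 0.10, adjusted p = 1.5e-05) against WT and by 0.56 (SE 0.11, adjusted p = 0.0016) against ONC.

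Uqcrb, a subunit of complex III that takes part in binding ubiquinone, was at 40.5, 52.8 and 56.6 CPM in WT, 43.8, 41.0 and 49.5 in ONC, 48.2, 61.3 and 59.3 in ONC-F, 60.8, 54.8 and 60.7 in ONC-J and 29.2, 30.5 and 30.5 for ONC-S. The ONC-S libraries differ by little among themselves and lie below all others, with a log2 fold change of -0.73 ± 0.11 (SE, edgeR adjusted p = 7.2e-05) against WT, although 68.6% of this mRNA is shared with transcripts of other genes. Atp5mpl, a small proteolipid of ATP synthase, ranged from 46.9 to 52.2 CPM in ONC-S and from 63.4 to 80.3 CPM elsewhere, with a change of -0.47 ± 0.06 (adjusted p = 2.4e-05) against WT. Ndufa1, a membrane arm subunit of complex I encoded on the X chromosome, ranged from 23.6 to 26.6 CPM in ONC-S and from 30.6 to 40.3 CPM elsewhere (-0.53 ± 0.08, adjusted p = 0.00011). Ndufs7, which carries an iron-sulfur cluster, ranged from 62.0 to 67.5 CPM against 74.1 to 86.9 CPM (-0.33 ± 0.05, adjusted p = 0.00023). Atp5j (coupling factor 6), Ndufs4 and Ndufb3 (complex I subunits) fell by 0.31, 0.36 and 0.38 on the log2 scale against WT, with adjusted p of 0.0004, 0.00042 and 0.00066. Ndufa3, a membrane subunit of complex I, fell by 0.34 against ONC (adjusted p = 0.019).

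A few members went the other way in ONC-S. Cox7a2l, also known as Scaf1, was counted here with complex IV. It was at 82.2, 86.9 and 85.7 CPM in WT, 79.7, 78.6 and 80.9 in ONC, 85.3, 92.1 and 86.5 in ONC-F, 87.3, 85.9 and 87.4 in ONC-J and 97.5, 97.7 and 96.3 for ONC-S. All ONC-S libraries lie above the other 12, with a log2 fold change of 0.19 ± 0.05 (SE, edgeR adjusted p = 0.0047) against WT and 0.28 ± 0.05 (0.00044) against ONC. Ndufb5, a membrane subunit of complex I, was higher against WT by 0.20 ± 0.06 (adjusted p = 0.016), with ONC-S libraries at 52.7 to 55.3 CPM and the others at 45.2 to 52.3. Against ONC, Atp5j2 (the f subunit of ATP synthase) was higher by 0.20 ± 0.06 (adjusted p = 0.028) and Uqcrc1 (a core protein of complex III) by 0.14 ± 0.04 (adjusted p = 0.039). Of the mitochondrially encoded members, mt-Nd3 was lower against ONC (-1.12, adjusted p = 0.036), at 2.26 to 4.82 CPM in ONC-S and 5.50 to 12.1 CPM in ONC, a low count on a gene with a near-identical nuclear copy. Without ONC replicate 2, the number called against ONC was 9 (1 higher, 8 lower), or 8.74% of the members beside 8.74% of all genes, with 7.77% of the members and 4.26% of all genes lower. It was 11 without ONC-S replicate 1 or 2 (10.7%, beside 10.6% and 8.73% of all genes).

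**Figure D5:**
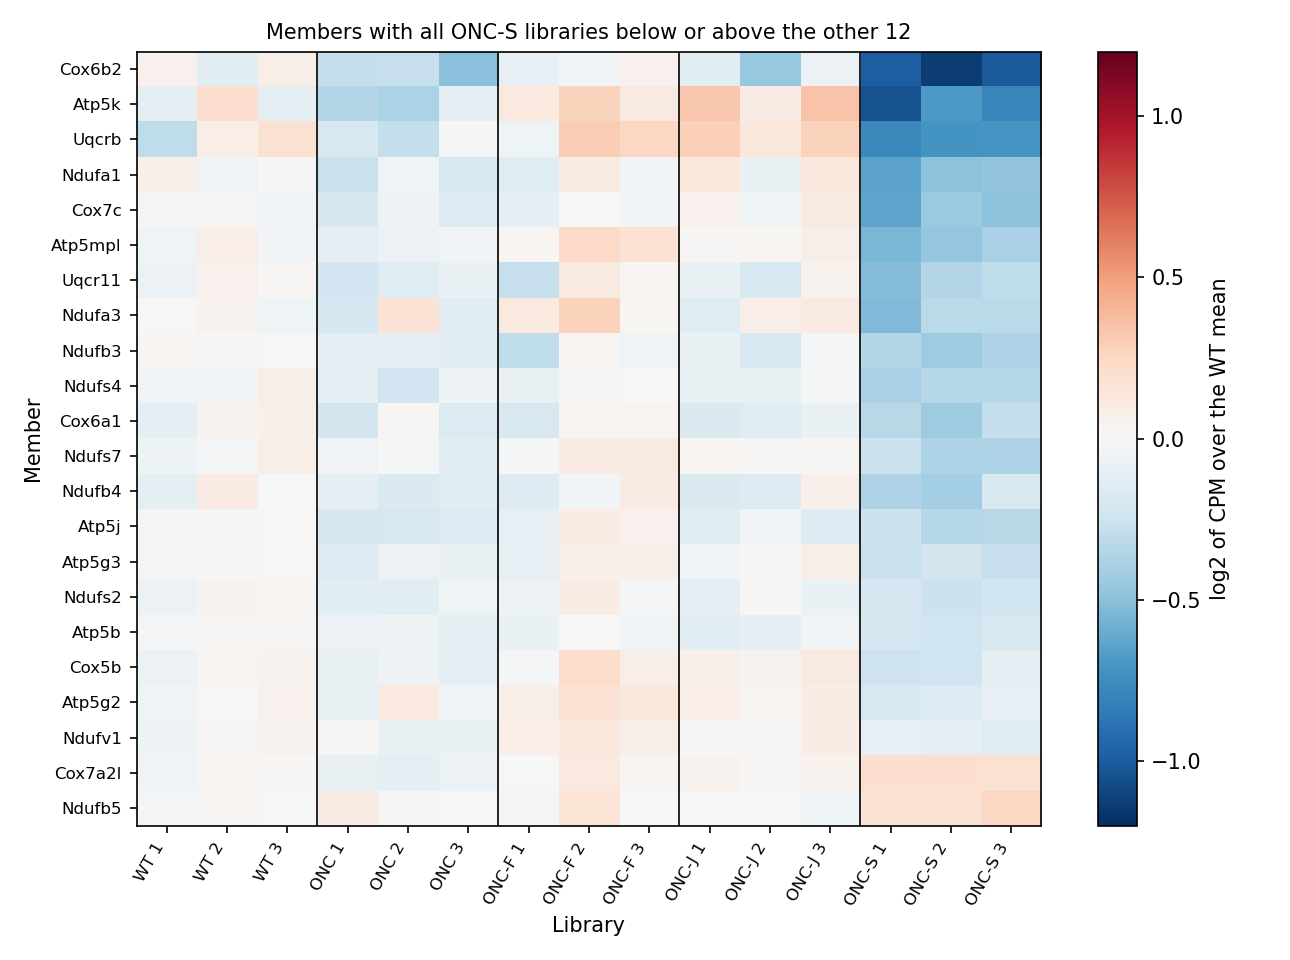
Log2 of CPM over the WT mean (color) in each of the 15 libraries for the 20 members in which the 3 ONC-S libraries lie below the other 12 and the 2 (Cox7a2l and Ndufb5) in which they lie above. That all 3 ONC-S libraries show the change follows from how these 22 members were chosen. The change is largest for Cox6b2, Atp5k and Uqcrb among them.

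Several other measures moved in the same libraries. All tested genes of up to 2054 exon bases had a median of -0.08 in ONC-S against WT and those of 6044 or more 0.05, and the 26 nuclear subunits called lower had a median exon length of 1172 bases, against 1828 for the 53 not called and 3695 for all tested genes. The 53 nuclear subunits of up to 2054 exon bases had a median of -0.16. With each library's trend on exon length removed, 3 members were higher and 26 lower in ONC-S against WT, and with its trend on GC content removed 4 and 32. The share of all genes called under these offsets is not given here, so the counts do not show whether the members stand apart. Summed CPM of the pericyte and smooth muscle list (8 genes) was 54.8 to 83.1 in ONC-S and 81.5 to 94.4 elsewhere, and that of the retinal pigment epithelium list (7 genes) 372 to 453 in ONC-S and 428 to 600 elsewhere. Microglia and macrophage genes had a median of 0.57 against WT (10 of 10 positive, 2 called higher), 9 of 12 RGC genes were lower, and 5 of 6 tested lens genes were lower, with WT replicate 1 holding most lens RNA. The part of these cell types in the result was not tested. Of 13 rod genes, 3 were called higher and 2 lower, and they summed to 60759 to 66548 CPM in ONC-S, within the range of the other libraries (55300 to 66852).

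Comparing the acupuncture points with the sham point, 30 members were higher and 1 lower in ONC-F than in ONC-S, where 7.03% and 7.6% of all genes were, and 21 were higher and 2 lower in ONC-J, where 6.28% and 6.62% were. These comparisons share the ONC-S libraries, so the values of a gene in both are not independent. Cox6b2, Atp5k and Uqcrb were higher by 1.01, 1.0 and 0.91 in ONC-F and by 0.83, 1.09 and 0.97 in ONC-J. Cox7a2l was lower by -0.14 and -0.16. By complex, ONC-F was higher than ONC-S in 14 of 36 subunits of complex I, 0 of 4 of complex II, 2 of 8 of complex III, 6 of 18 of complex IV and 6 of 16 of complex V. Without ONC-F replicate 2 the count for ONC-F was 20 (18 higher, 2 lower) beside 9.07% of all genes called, and for ONC-J it was 14 without ONC-J replicate 3 and 15 without ONC-S replicate 2, beside 6.97% and 6.88% of all genes.

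When the 12 injured libraries were pooled against WT, 1 member was higher (Cox6a2) and 6 were lower, where 3.43% and 4.15% of all genes were. The 6 were Cox6b2 (-0.40), Ndufaf2 (-0.34), Cox7c (-0.17), Ndufs5 (-0.18), Atp5j (-0.15) and Ndufaf4 (-0.18). The pooled mean includes ONC-S, in which Cox6b2, Cox7c and Atp5j were at -1.03, -0.52 and -0.31 against WT. For these the 3 ONC-S libraries lay below the 12 others, whereas for Ndufaf2, Ndufs5 and Ndufaf4 they overlapped with the others. The part of ONC-S in the pooled values was not tested. The count of 7 fell to 1 without WT replicate 1, the library with lens transcripts, to 2 without WT replicate 2, to 4 without WT replicate 3 or ONC-F replicate 1 and to 3 without ONC replicate 3. In a test for any difference among the 5 groups, 27 of 103 members were called, all of them nuclear encoded, against 18.5% of all genes, and 16 without ONC-S replicate 2. For the counts with a library left out, the shares of all genes are not given here. They therefore do not show whether the members moved more than other genes.

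Other genes of mitochondrial and energy metabolism, from lists chosen with the members, gave context. Of 36 tested assembly factors of complexes I to V outside the Ndufaf symbols, 0 were called in ONC, ONC-F or ONC-J against WT. In ONC-S 7 of them (19.4%) were lower and 0 higher than in WT, where 11.7% and 11.6% of all genes were called in those directions. Among the 7 were Cox14 (-0.31, edgeR adjusted p = 0.0066) and Pet100 (-0.50, adjusted p = 0.0083), both needed to build complex IV. Cycs, somatic cytochrome c, which carries electrons from complex III to complex IV, was lower in ONC-S by 0.30 (adjusted p = 0.0034) and in ONC-J by 0.27 (adjusted p = 0.03) against WT. Of 26 regulators of mitochondrial DNA expression and biogenesis, 4 were higher (15.4%) and 3 lower (11.5%) in ONC-S against WT, near the shares of all genes. Those higher were Nrf1 (0.30, adjusted p = 0.0023), Gabpa (0.26, 0.0042), Yy1 (0.18, 0.038) and Ppargc1b (0.22, 0.044), which encode transcription factors and a coactivator of nuclear genes for mitochondria. Those lower were Ssbp1 (-0.21), Fastk (-0.17) and Lrpprc (-0.17).

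Of 13 tricarboxylic acid cycle genes, 1 was higher (Ogdh, 0.19) and 3 were lower (Idh3a, Idh3b and Sucla2, -0.26 to -0.16) in ONC-S against WT (7.69% and 23.1%, where 11.6% and 11.7% of all genes were), and 0 were called in ONC, ONC-F or ONC-J. Of 17 glycolysis genes, 1 was higher and 13 were lower in ONC-S against WT, with a median of -0.39, and 1 was higher and 10 were lower in the 12 injured libraries together (3.43% and 4.15% of all genes). Against WT, 2 were lower in ONC, 1 in ONC-F and 3 in ONC-J, with 0 higher in each. Of all genes, 1.16% were lower in ONC, and 2.01% and 3.61% were called in either direction in ONC-F and ONC-J. Called in ONC-S or in the 12 injured libraries together were Ldha (lactate dehydrogenase A, lower) and Hk1 (the first enzyme of the pathway, higher).

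Promoters of the nuclear members, 300 bases from 250 before to 50 after the RefSeq start (GRCm38.p6), could be matched for 75 of 92. They were searched on both strands for short motifs of factors known to act on these genes. GCGCATGCG (NRF1), which overlaps its own reverse complement by all but 1 base, was found in 10 members (13.3%), against 1.95% of 27025 genes with such a sequence, AAGATGGCG (YY1) in 8 (10.7%, against 1.64%), CCGGAAGTG (GABPA) in 2 (2.67%, against 2.25%) and TCAAGGTCA (ERR) in 2 (2.67%, against 0.466%). Of the 23 nuclear subunits lower in ONC-S against WT with a promoter, 4 held the NRF1 letters, as did 4 of 42 not called, and 4 held the YY1 letters, as did 3 of the 42. Windows around the NRF1 letters (capitals) are shown for Atp5k and Cox6a1, as members that were lower in ONC-S.
Atp5k (chr5:108434415-108434474, minus strand): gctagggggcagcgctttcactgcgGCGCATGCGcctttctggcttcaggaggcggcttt
Cox6a1 (chr5:115349086-115349145, minus strand): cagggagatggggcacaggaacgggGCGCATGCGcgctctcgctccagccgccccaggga
The letters begin 50 and 162 bases before the annotated start of Atp5k and Cox6a1. Cox6a1, at 118 to 130 CPM in ONC-S and 136 to 166 CPM in the other libraries, was lower against WT by 0.35 (edgeR adjusted p = 0.0013).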

How the data were processed

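Poly-A RNA of mouse retina was sequenced in 15 libraries, 3 in each of 5 groups, and both deposited tables were used. Counts per gene were made by the authors with HISAT2 2.0.5 on mm10 and featureCounts, and FPKM values were deposited beside them. The annotation release, strand setting and treatment of reads with several places are not given in the sources used here. FPKM was used for levels and counts for tests.

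Genes were kept by edgeR's filterByExpr (minimum count 10, minimum total 15) and tested with edgeR 4.0.16 (R 4.3.3): TMM scaling, 1 quasi-likelihood fit over the 5 groups with 10 residual degrees of freedom, and Benjamini-Hochberg adjustment over all 19259 genes (called: adjusted p under 0.05). DESeq2 1.42.0 and limma-voom (limma 3.58.1) were alternatives, beside other filters, offsets for exon length and GC content, a replicate block and libraries left out. Copies of mRNAs were sought with BLAST+ 2.17.0 (98% identity) in GENCODE transcripts.

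The members and lists were chosen with earlier results of these data known. Named were all mitochondrially encoded members, nuclear members called in a pairwise comparison (up to 10 with the smallest p in each direction), tissue isoforms, the highest and lowest nuclear member of each complex, and up to 4 called genes of each other list. Others named were members called in the pooled injured comparison, Ndufaf2 and Ndufaf4 among them, and genes named for shared sequence or a figure; these were chosen after their values were seen. On simulated counts for ONC against WT (19006 genes), 39 of 98 genes changed by 0.5 on the log2 scale and 72 of 100 changed by 1 were recovered, with 7 false calls. The changed genes were drawn at random from all tested genes, so these rates are not those of the members.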

Additional observations from a re-analysis of the deposited data

Results flagged for a closer look

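ONC-F and ONC-S, each set against the same ONC libraries, differed in edgeR's quasi-likelihood test for 31 members, beside 14.6% of all genes. Among those named, ONC-F exceeded ONC-S on the log2 scale by 1.01 for Cox6b2, 1.0 for Atp5k, 0.91 for Uqcrb, 0.61 for Atp5mpl, 0.53 for Ndufa3, 0.51 for Ndufa1, 0.48 for Cox7c, 0.40 for Ndufs7, 0.39 for Ndufc2 and 0.33 for Atp5j. The difference for Cox7a2l was -0.14.

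ONC-J and ONC-S, set against ONC in the same way, differed for 23 members, beside 12.9% of all genes. ONC-J exceeded ONC-S by 1.09 for Atp5k, 0.97 for Uqcrb, 0.83 for Cox6b2, 0.59 for Ndufa1, 0.56 for Cox7c, 0.50 for Atp5mpl, 0.40 for Ndufc2, 0.35 for Ndufs7, 0.30 for Ndufs4 and 0.28 for Atp5g3. The differences for Ndufb5 and Cox7a2l were -0.22 and -0.16. Both sets of differences rest on the same 3 ONC-S libraries, for which a difference in processing time, if any, and needling at GV16 cannot be told apart.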

How the results depend on the processing

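The other settings included those chosen after seeing the data (offsets for exon length and GC content, and WT replicate 1 and ONC replicate 2 left out together). Of 7120 values of the named members under them, 341 lost and 52 gained a call. Among values called in the main or the other fit, 0 changed sign. Sign changes of values called in neither fit were not counted. Without a filter on low counts, 7 members were called in ONC against WT, 4 in ONC-F and 5 in ONC-J against WT, 6 in ONC-F and 4 in ONC-J against ONC, and 3 in ONC-F against ONC-J, where 2.44%, 2.52%, 3.57%, 0.931%, 0.986% and 0.235% of all genes were called in that order. Limma-voom called 4 in ONC against WT and 15 in the injured libraries against WT, the length offset 2 in ONC against WT, and DESeq2 1 in ONC-F against ONC. The call in ONC-J against ONC fell to 0 with a 1 CPM filter, with edgeR on the compared libraries alone, with the GC offset and without both WT replicate 1 and ONC replicate 2. Without those libraries, 9 were called in ONC-S against ONC and 4 in the injured libraries, and the nuclear median of ONC-S against WT was -0.14. As a share of FPKM, the mitochondrially encoded members took 7.0% of the total in WT, 6.85% in ONC, 7.30% in ONC-F, 7.13% in ONC-J, and 7.12% for ONC-S. In summed FPKM, ONC-S differed from WT by -11.5% for complex I, -8.88% for complex III, -10.7% for complex V and -9.72% for all nuclear subunits. For these changes the cause was not tested.

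With single libraries left out, counts of members called ranged from 1 to 3 in ONC, 1 to 2 in ONC-F, 1 to 2 in ONC-J and 24 to 34 for ONC-S against WT, from 0 to 1 in ONC-J and 9 to 20 for ONC-S against ONC, from 20 to 34 in ONC-F and 14 to 24 in ONC-J against ONC-S, from 1 to 10 in the injured libraries and from 16 to 28 for any difference. Mitochondrial medians against WT ranged from 0.045 to 0.11 in ONC-F, -0.062 to 0.082 in ONC-J and -0.055 to 0.069 for ONC-S, and from 0.026 to 0.094 in ONC-J against ONC, and nuclear medians from -0.0036 to 0.065 in ONC-F and -0.14 to -0.094 in ONC-S against WT and 0.012 to 0.076 in ONC-J against ONC.

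The experiment was repeated 3 times, but no source says that a replicate number marks a repeat. By the deviations of the libraries, numbers were not taken as pairs: deviations of same-numbered libraries correlated over 0.1 in 3 of 30 pairs (-0.0909 to 0.182), and 8 of 15 libraries matched best a library of their own number, so a shared repeat cannot be told from these data. With the replicate block, 35 members were called in ONC-S and 2 in ONC-J against WT, and 19 in ONC-S against ONC. This fit called 34 in ONC-F and 27 in ONC-J against ONC-S, 10 in the injured libraries and 31 for any difference. Counts under this and the other settings above that lack the share of all genes do not show whether the members moved more than other genes.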
